A study of Mus musculus with 2 samples.

Results

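Slpi, Cst3, Cstb, Timp1, Timp2, Serpinb6a and Serpinb9 encode 7 protease inhibitors of macrophages, and their mRNA signals were compared between RAW264.7 cells with and without introduced miR-155. RAW264.7 is an established mouse macrophage-like line. One pool of cells carried the empty retroviral vector MSCV and the other MSCV encoding mir-155; both went through selection in 7 µg/ml puromycin and limiting dilution, and RNA of 5 clones was pooled in each arm. Each pool was measured on 1 Affymetrix array, so there was no replicate, no test was possible and every value below describes these 2 arrays. The purpose given for the comparison was to find mRNAs regulated by mir-155. Both arms carry the vector. Differences between clones, between cultures and between arrays cannot be told apart from the effect of the mir-155 insert, since each arm is 1 pool on 1 array. In pooled RNA a different share of expressing cells cannot be told apart from a different level per cell.

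The 7 genes are 7 of 18193 named on the array. All 14 probesets that carry exactly 1 of their symbols were taken. The members were selected on measured values, namely the ratio of miR-155 to empty-vector signal on these same arrays, so their ratios are a description. Signals are in arbitrary units on a linear scale, given with the empty-vector array first. Where a gene has several probesets, the brightest by mean log2 signal stands for it. The brighter 50% of genes, 9097 in all, were kept; the dimmest of them had a geometric mean signal of 25.8, called the signal floor here. The local SD beside a ratio is a robust SD, from the scaled median absolute deviation, of log2 ratios (miR-155 over empty vector) over the 500 kept genes nearest in signal. It measures the scatter of ratios between these arrays and not an error between replicates.

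Extracellular and lysosomal proteolysis by macrophages is held in check by inhibitors that are each matched to a class of protease. SLPI, a small secreted protein with WAP domains, and the clade B serpins, which act inside cells and are consumed as they trap their target, bind serine proteases. Cystatins block cysteine cathepsins, cystatin C mainly outside cells and cystatin B in the cytosol, and TIMPs bind metalloproteinases. SLPI is also known to dampen the response of macrophages to lipopolysaccharide.

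The mature strand of the introduced microRNA that is usually the active one is shown first, because the insert in the miR-155 arm encodes it. Its level was not analysed here. It is the mouse sequence of RefSeq (GRCm38.p6, chr16:84714143-84714165, + strand), with the seed, bases 2 to 8, in capitals. Whether mRNAs of the 7 genes hold a match to this seed was not analysed here.
mmu-miR-155-5p: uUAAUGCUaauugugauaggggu

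Promoter windows of RefSeq (GRCm38.p6) were found for 6 of the 7 genes, all but Cstb. The 250 bases before the annotated start are shown, 5′ to 3′ on the gene's strand, for the 3 genes past 1.5-fold (Slpi, Serpinb9 and Timp1) and for Serpinb6a, whose window of its farther upstream start shares a motif with Serpinb9. Capitals mark matches to any of 6 motifs searched on both strands. The windows lie at chr2:164356508-164356757 (− strand) for Slpi, chr13:33004291-33004540 (+ strand) for Serpinb9, chr13:34002795-34003044 (− strand) for Serpinb6a and chrX:20869916-20870165 (+ strand) for Timp1.
Slpi: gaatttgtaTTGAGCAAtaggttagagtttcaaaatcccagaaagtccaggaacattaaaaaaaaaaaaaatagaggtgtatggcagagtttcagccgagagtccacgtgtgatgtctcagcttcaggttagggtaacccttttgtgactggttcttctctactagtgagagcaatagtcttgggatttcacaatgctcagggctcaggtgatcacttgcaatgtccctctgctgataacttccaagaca
Serpinb9: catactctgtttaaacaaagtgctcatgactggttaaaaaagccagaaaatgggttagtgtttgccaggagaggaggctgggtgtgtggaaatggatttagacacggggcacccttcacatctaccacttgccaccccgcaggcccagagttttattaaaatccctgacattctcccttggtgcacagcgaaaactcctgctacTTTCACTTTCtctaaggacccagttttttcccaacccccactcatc
Serpinb6a: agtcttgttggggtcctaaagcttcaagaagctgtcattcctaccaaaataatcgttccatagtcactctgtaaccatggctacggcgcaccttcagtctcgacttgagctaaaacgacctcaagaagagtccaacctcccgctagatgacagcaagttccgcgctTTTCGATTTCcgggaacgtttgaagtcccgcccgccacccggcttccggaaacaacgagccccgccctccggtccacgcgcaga
Timp1: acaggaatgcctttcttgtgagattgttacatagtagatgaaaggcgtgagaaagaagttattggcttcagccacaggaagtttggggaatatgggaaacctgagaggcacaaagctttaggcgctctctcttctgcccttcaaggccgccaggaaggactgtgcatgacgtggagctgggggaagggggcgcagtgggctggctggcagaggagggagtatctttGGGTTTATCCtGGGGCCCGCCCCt

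The interferon-response-element type GAAANNGAAA stood once in the Serpinb9 window, 46 to 37 bases before the start. It stood once in the Serpinb6a window shown, 84 to 75 bases before the start, both times on the opposite strand. It is present in 2.98% of the 32851 windows of this length. The window of the other Serpinb6a start held no match to any of the 6 motifs. Which start of Serpinb6a is used in these cells was not analysed here. The C/EBP type TTGCNNAA was found once in the Slpi window, 241 to 234 bases before the start, and in 9.56% of all windows. The NF-κB type GGGNNNNNCC was found in the Timp1 window, as a separate match 24 to 15 bases before the start and overlapping ones closer to it, in the Cst3 window and in 45.8% of all windows, so it is a loose pattern. The PU.1 type GAGGAA (23.3% of windows) was found in the Cst3 window alone of those examined. The TATA box TATAAA (12.4%) and the AP-1 type TGANTCA (6.75%) were in none of the 7 windows of the 6 genes, of which 2 belong to Serpinb6a. A match describes the letters and is no evidence of binding.

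Slpi differed most among the 7 genes. Its 1 probeset read 73.5 with the empty vector and 469 with miR-155, a 6.38-fold higher signal (log2 ratio 2.67, local SD 0.28). On the empty-vector array 73.0% of all probesets read lower than this one, and on the miR-155 array 92.0% did. Only 7 of the 9097 genes kept had a higher ratio, and 1 of the 500 genes nearest in signal had one at least as high. No further probeset of Slpi was available to set beside it.

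SLPI is also made by neutrophils and epithelial cells, and their markers were dim on both arrays. None of 9 measured neutrophil markers was among the genes kept, and their summed signal was 76.1 with the empty vector and 89.6 with miR-155. Elane, neutrophil elastase, read 2.04 and 2.64, and S100a8 read 6.61 and 8.23. Of 9 neutrophil markers only Ngp reached the floor, on the miR-155 array alone (18.7 and 29.6). Of 8 epithelial markers only Epcam was kept (37.6 and 32.2), and the summed signal of the 8 was 101 and 90.7. The further probeset of Epcam read 1.95 and 1.17. None of 8 fibroblast, 9 T or NK cell and 5 B cell markers was kept. Most macrophage markers were present, with 8 of 10 kept, but Mertk and Cd86 read below the floor on both arrays. The 8 kept, among them Csf1r, Cd68 and Lyz2, had a median log2 ratio of −0.13. Csf1r, the receptor for the growth factor CSF-1, entered it at −0.25, while its further probesets gave −0.99 and −0.96. Cd14, the co-receptor for lipopolysaccharide, read 1728 and 4145 (log2 ratio 1.26), and Adgre1, which encodes F4/80, read 472 and 289 (−0.71). Fcgr1, an activating IgG receptor, was at 0.66, and Spi1, the transcription factor PU.1, at −0.61.

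Both clade B serpins also read higher in the miR-155 array, by less. Serpinb9, an inhibitor of granzyme B, read 46.2 and 81.9 in its brighter probeset, 1.77-fold higher (log2 ratio 0.83, local SD 0.39). Its dimmer probeset read 17.2 and 23.5, below the floor on both arrays and higher in the same array. Serpinb6a, whose human counterpart inhibits cathepsin G, had 1 probeset, which read 704 and 961, 1.37-fold higher (log2 ratio 0.45, local SD 0.17). The ratio of Serpinb6a is smaller than that of Serpinb9, but it lies in a brighter range where ratios scatter less: 11 of the 500 genes nearest in signal had a ratio at least as high, against 19 of 500 for Serpinb9. Serpinb6a has close paralogs, and whether its probeset also reads them was not analysed here.

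The cystatins were the brightest probesets of the group and differed least in fold between the arrays. Cst3, encoding cystatin C, read 8066 and 6544, 1.23-fold lower (log2 ratio −0.30, local SD 0.11), which placed it above 99.9% and 99.6% of all probesets. Cstb, encoding cystatin B, read 2762 and 3038 in its brighter probeset (log2 ratio 0.14, local SD 0.13) and 1318 and 1487 in its further probeset (0.17). Both were within 1.5-fold, Cst3 below 0 and Cstb above it, the latter by little more than its local SD of 0.13. For Cst3, 16 of the 500 genes nearest in signal had a ratio as low or lower, while 57 of 500 had a ratio at least as high as that of Cstb. Counted in local SDs from the median of those 500 genes, Cst3 was at −2.42 and Cstb at 1.37. On that scale Serpinb9 was at 2.20 and Timp1 at −2.17, so Cst3 differed least in fold only.

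Timp1 was the 1 member at least 1.5-fold lower with miR-155. This gene encodes a secreted inhibitor of metalloproteinases. Its 1 probeset read 80.2 and 40.4, 1.98-fold lower (log2 ratio −0.99, local SD 0.45). It lies in a dim range with wide scatter, in which 10 of the 500 nearest genes had a ratio as low or lower.

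Timp2, which inhibits metalloproteinases and takes part in the activation of MMP-2, gave no usable ratio. All 6 of its probesets were below the floor on both arrays, from 0.49 to 15.2 with the empty vector and from 0.63 to 14.8 with miR-155. They did not go one way: 4 read lower and 2 read higher in the miR-155 array. At such signals a low reading is not shown to be an absence of the mRNA.

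**Figure D1:**
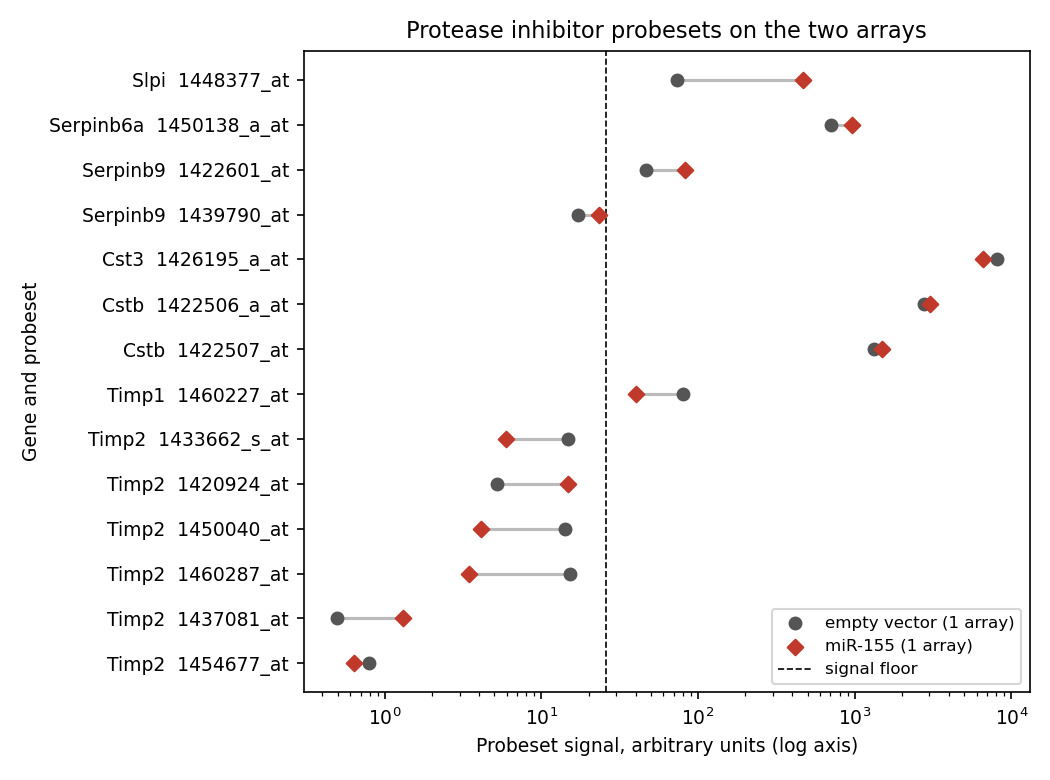
Signal of each of the 14 probesets of the 7 inhibitor genes (rows) on a log axis in arbitrary units, with a grey circle for the empty-vector array, a red diamond for the miR-155 array and a dashed line at the signal floor of 25.8; there is 1 array per group and so no error bar. The Slpi pair is far apart (73.5 and 469), the pairs of Cst3 and Cstb nearly coincide, and the 6 Timp2 pairs lie to the left of the floor and go both ways.

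Of the 6 inhibitors kept, 4 read higher and 2 lower in the miR-155 array, with a median log2 ratio of 0.29 against −0.05 for all genes kept. Slpi and Serpinb9 were at least 1.5-fold higher, a size that 5.32% of the genes kept reached, and Timp1 was at least 1.5-fold lower, as were 5.99%. Slpi was the 1 member at least 2-fold higher (1.92% of the genes kept), and no member was at least 2-fold lower (1.43%), with Timp1 just short of it. Because these ratios had served to choose the genes, the counts are not read against those shares.

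**Figure D2:**
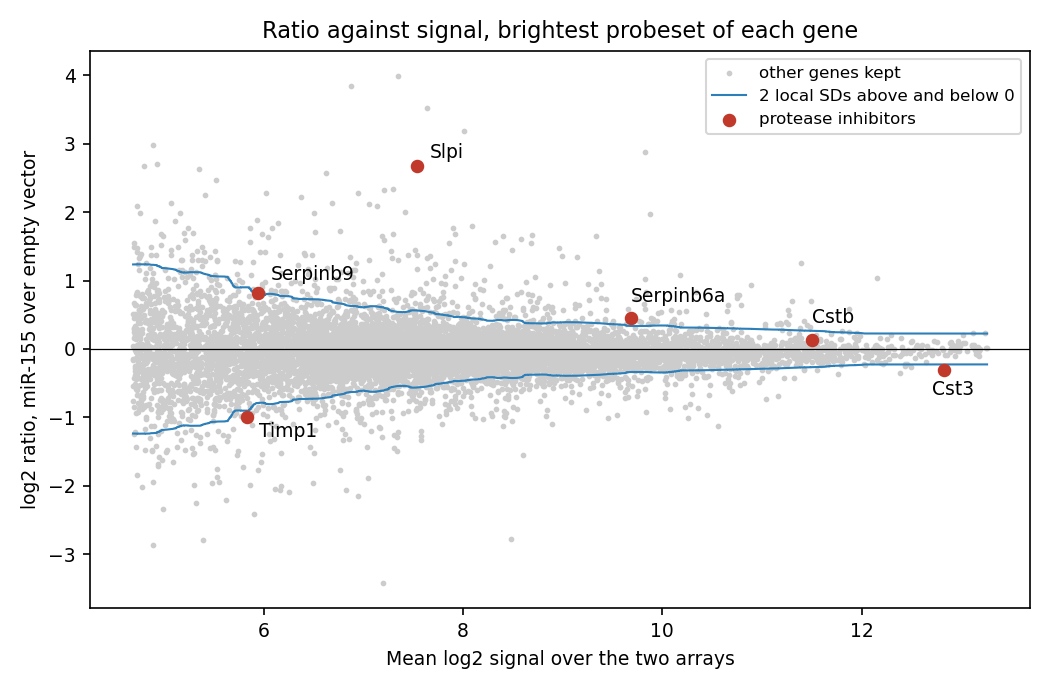
The log2 ratio of miR-155 over empty vector (vertical axis) against the mean log2 signal of both arrays (horizontal axis) for the brightest probeset of each of the 9097 genes kept, in grey, with the 6 inhibitors in red; blue lines mark 2 smoothed local SDs on either side of 0, a description of scatter and not a test. Slpi (2.67) stands above all but 1 of the 500 genes nearest in signal, while Serpinb9 (0.83) and Timp1 (−0.99) are in the wide, dim part of the cloud and Cst3 (−0.30) is in its narrow, bright part.

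Other protease inhibitors and related genes, of the same families and of others such as calpastatin (Cast), were mostly dim. Of 45 measured, 8 were kept, with a median log2 ratio of 0.20. Of these, 2 were at least 1.5-fold higher (5.32% of all genes kept) and 1 was as much lower (5.99%). Cst7, encoding cystatin F, which is directed to lysosome-like compartments and restrains the activation of cathepsin C, read 185 and 549 (2.96-fold higher, log2 ratio 1.57, local SD 0.20). Serpinf1, a secreted serpin without protease-inhibiting activity, read 164 and 268 (0.71, local SD 0.26). Wfdc17, which like Slpi has a WAP domain, read 48.9 and 67.0 (0.46, local SD 0.46). Serpinb8, a clade B serpin, read 820 and 441, lower with miR-155 (−0.89, local SD 0.19), and its further probeset gave −1.16. The clade B serpins kept therefore did not share a direction, since Serpinb6b read 96.0 and 123 (0.35). The cystatins kept did not either, with Cst7 higher and Cst3 lower.

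Proteases of the classes that these inhibitors act on were then described by class. Whether each protease listed is itself bound by one of these inhibitors was not tested. The 8 cysteine cathepsins kept of 11 had a median of 0.06. Of these, 1 was at least 1.5-fold higher (5.32% of all genes kept) and 1 was as much lower (5.99%). Ctsb, cathepsin B, read 3059 and 4590, just past that size (log2 ratio 0.59, local SD 0.12), but its 3 further probesets above the floor gave 0.06 to 0.96. Ctso (0.52) and Ctsc (0.40), encoding cathepsins O and C, were within 1.5-fold, and Ctss, cathepsin S, read 4257 and 4259. Ctsf, cathepsin F, read 78.3 and 19.8, the latter below the floor. The 3 not kept were Ctsh, Ctsk and Ctsw.

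Of 22 serine proteases measured, 5 were kept, with a median of 0.19. Of these, 2 read at least 2-fold higher (1.92% of all genes kept), and none read 1.5-fold or more lower (5.99%). St14, the membrane protease matriptase, read 36.6 and 125 (3.41-fold, log2 ratio 1.77, local SD 0.41). Plau, the urokinase plasminogen activator, read 103 and 256 (2.47-fold, 1.31, local SD 0.27), with 0.83 in its further probeset. Klk1, tissue kallikrein, was at 0.19 in its brightest probeset (127 and 145), and that value is the median of the list. Its 3 further probesets were below the floor on both arrays. They read from 0.46 to 6.51 with the empty vector and from 0.37 to 6.08 with miR-155. Prss22 read 29.3 and 23.4. The granule proteases that SLPI, SERPINB6 and SERPINB9 are known for binding were below the floor on both arrays: Elane as above, Ctsg, cathepsin G, at 13.5 and 4.11, and Gzmb, granzyme B, at 0.79 and 9.23.

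Of 24 metalloproteinases measured, 6 were kept, with a median of 0.06, and none reached 1.5-fold in either direction (11.3% of all genes kept). The largest ratio was that of Adam10, a membrane sheddase, at 997 and 688 (log2 ratio −0.54, local SD 0.17), with −0.59 and −0.46 in its further probesets. Adam17, the TNF-releasing sheddase, was at 0.33, Adam15 at 0.26 and Adam8 at 0.07. Among the genes named Mmp only Mmp24 was kept (28.7 and 28.6). Mmp9 and Mmp14, a secreted gelatinase and a membrane-bound collagenase, were below the floor on both arrays (13.7 and 13.5, and 19.0 and 11.7).

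SLPI protects progranulin from cleavage by elastase and binds a few proteins of the cell surface. The 6 genes kept from a list of such partners and of progranulin receptors had a median of −0.21. Of these, 1 was at least 1.5-fold lower (5.99% of all genes kept) and none was as much higher (5.32%). Sort1, sortilin, an uptake receptor for progranulin, read 108 and 37.0 (2.91-fold lower, log2 ratio −1.54, local SD 0.38). Grn, progranulin itself, read 2398 and 2979 (0.31), with 0.43 and 0.70 in its further probesets. Lrp1 was at −0.51, and Anxa2 at 0.39 but at −0.01 in its further probeset.

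**Figure D3:**
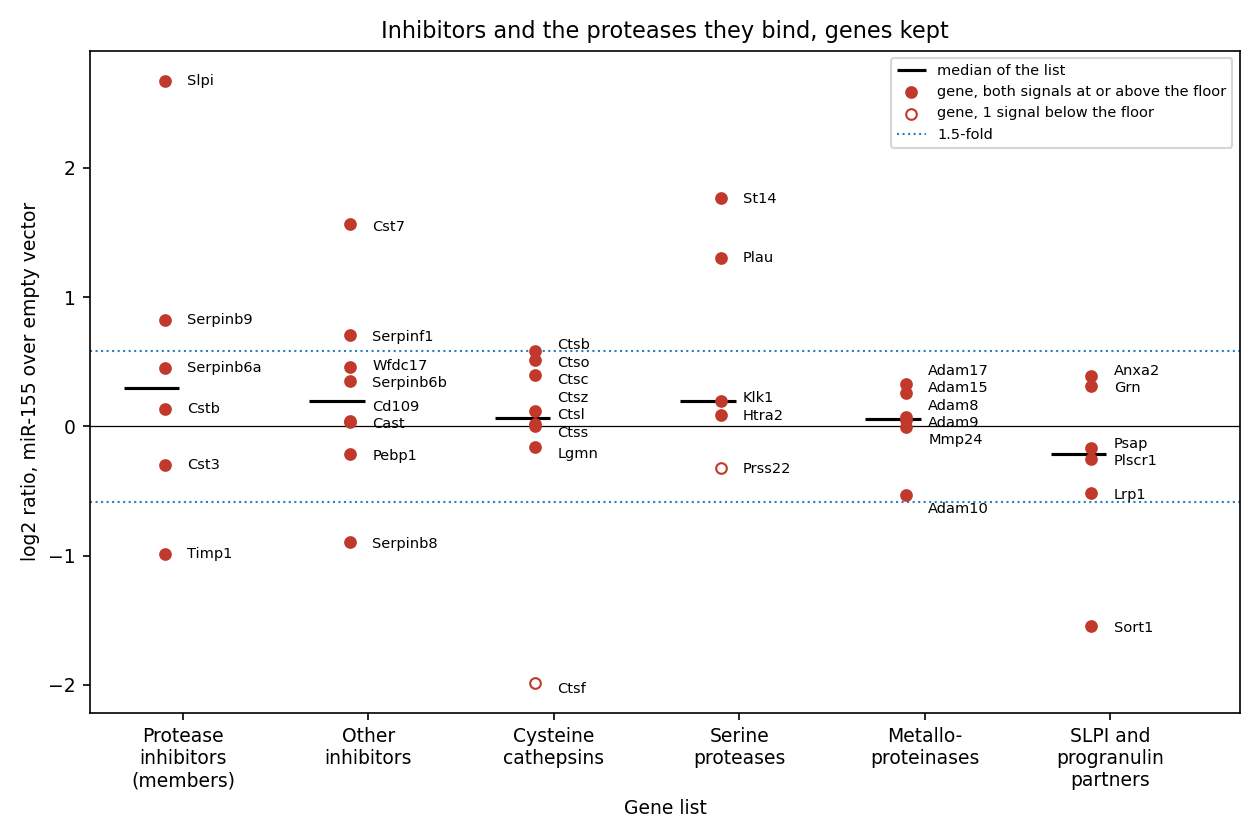
The log2 ratio of miR-155 over empty vector (vertical axis) for each gene kept of the 7 inhibitors and of 5 related lists (horizontal axis); filled points had both signals at or above the floor, open points had 1 signal below it, black bars are list medians and dotted lines mark 1.5-fold. Slpi (2.67) is the highest point, followed by St14, Cst7 and Plau, while Sort1 and Ctsf are the lowest and the metalloproteinases all lie within 1.5-fold.

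The genes whose difference was most like that of Slpi, among those with both signals at or above the floor and a mean signal within 2-fold of its own, were Rgs1, Ifi202b and Anxa3. Likeness here is the distance in 1 log2 ratio from 1 array per arm. Rgs1, a regulator of G-protein signalling, read 40.5 and 241, a distance of 0.10 on the log2 scale. Ifi202b, an interferon-inducible gene, read 70.2 and 355 (0.34 away), and Anxa3, an annexin, read 65.8 and 330 (0.35 away). Slpi and Ifi202b differ by little more than 1 local SD of 0.28.

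Genes lying beside the inhibitors were examined in the RefSeq order of protein-coding genes, 3 on each side. Of 42 such neighbours 18 were kept, and 3 of these were past 1.5-fold in either direction, a size reached by 11.3% of the genes kept. They were Sdc4, a heparan sulfate proteoglycan and the third gene from Slpi, with 87.3 and 145 (log2 ratio 0.74, local SD 0.33), Lgals3bp near Timp2 with 318 and 815 (1.36, local SD 0.19), and Elk1 near Timp1 with 23.2 and 36.7, the former below the floor. The other 5 neighbours of Slpi were not kept. Cfp, properdin, directly beside Timp1, read 646 and 528 (−0.29). Serpinb6b, directly beside Serpinb9, read higher as given above, and Cst9, Cst10 and Cst13 beside Cst3 were below the floor on both arrays. The neighbours past 1.5-fold were named after their values had been seen.

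**Figure D4:**
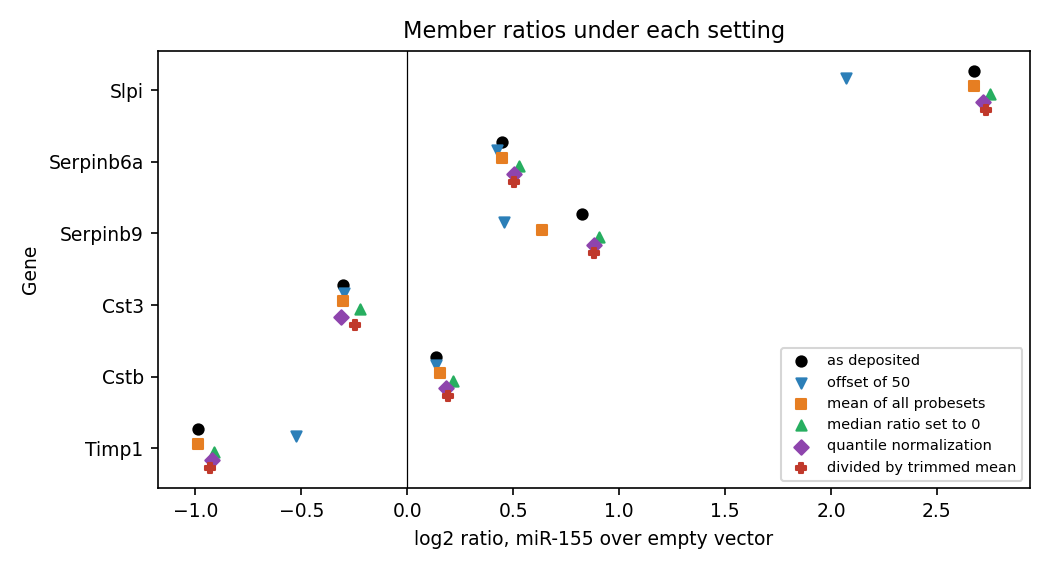
The log2 ratio of miR-155 over empty vector (horizontal axis) of the 6 inhibitors kept (rows), as deposited and under 5 other settings shown by symbols. Each gene stays on its side of 0 under all of them; an offset of 50 draws the dimmer genes towards 0, with Slpi at 2.07 and Timp1 at −0.53.

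The ratio of Slpi ran from 2.07 to 2.75 over the settings tried and that of Serpinb6a from 0.42 to 0.53. Serpinb9 ran from 0.46, within 1.5-fold, to 0.90, and Timp1 from −0.99 to −0.53, also within 1.5-fold at its smallest. Cst3 stayed between −0.31 and −0.22 and Cstb between 0.13 and 0.21.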

How the data were processed

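Total RNA of 5 pooled clones per arm was labelled with biotin and hybridised to 1 Affymetrix array per arm, per the labels' protocols. The authors deposited 1 intensity per probeset, on a linear scale. How probes were summarised, corrected for background and scaled is not given in the sources read, nor are detection calls. All 45101 values per array are above 0, with medians of 15.4 (empty vector) and 14.1 (miR-155). Names came from the platform annotation, with symbols checked against RefSeq (GRCm38.p6) by Entrez identifier; 64 control probesets were left out and 34945 probesets had 1 symbol. The array's build is not given, so genome coordinates are printed only for RefSeq sequences.

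Log2 ratios were taken as deposited, with no offset, in Python 3.11.15. Ratios were not printed for single genes with a signal below the floor. Genes were counted at 1.5-fold and 2-fold. With 1 array per group there is no residual degree of freedom, so the number of arrays limits precision. The steps were tested on simulated data. The members, gene lists, motifs and neighbours were chosen with earlier results of these data known. In each list, the 4 largest ratios among genes kept and every gene at least 2-fold were named; any other gene named was picked with its values known.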

Additional observations from a re-analysis of the deposited data

How the results depend on the processing

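No paired analysis was possible because each arm has 1 array, and leaving out a replicate was not possible either. No log2 ratio of the 6 inhibitors kept changed sign under another setting. The arrays were also rescaled by setting the median log2 ratio over all probesets to 0, by quantile normalization and by a common trimmed mean. The median log2 ratio of the genes kept went from −0.05 to 0.03, −0.0031 and 0.0076, in that order. With an offset of 50, Slpi was at 2.07 and Timp1 at −0.53 on the log2 scale, 1 member was at least 1.5-fold higher and 0 were as much lower, and 1 other inhibitor was at least 1.5-fold higher; of all genes kept, 2.25% and 2.15% were as much higher and lower, against 5.32% and 5.99% without it. In the upper 25% of signal (geometric mean of at least 194) Slpi (186), Serpinb9 and Timp1 fall out, so 0 members were past 1.5-fold or 2-fold, 0 serine proteases were at least 1.5-fold higher, and 0 cathepsins and 0 SLPI partners were as much lower; there the share of all genes past 1.5-fold was 2.42% upwards and 2.09% downwards, and past 2-fold 0.791% and 0.242%. With no filter, counts at 1.5-fold higher and lower were 10 and 16 for other inhibitors, 3 and 2 for cathepsins, 7 and 4 for serine proteases and 6 and 5 for metalloproteinases; 1 SLPI partner was higher, and 2 members were at least 1.5-fold lower, with Timp2 the 1 at least 2-fold lower. Over all genes 17.1% and 21.2% were at least 1.5-fold higher and lower in that setting, and 13.8% were at least 2-fold lower. Timp2 enters these counts although it read below the floor on both arrays and gave no usable ratio. With the mean of all probesets, other inhibitors gave 1 higher and 2 lower, cathepsins 0 higher, metalloproteinases 1 lower and SLPI partners 3 lower. Of all genes kept in that setting, 7.65% were at least 1.5-fold higher and 10% as much lower. With the median ratio set to 0, cathepsins gave 2 higher, a size that 6.78% of all genes kept then reached. Raising signals below the floor to it, an alternative chosen after seeing the data, left each of these counts within 1.5 times its value.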

Other observations

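Ctsh, encoding the cysteine protease cathepsin H, fell outside the genes kept because the filter acts on the mean of both arrays. Its brighter probeset read 2.74 with the empty vector and 75.3 with miR-155, and its further probeset 2.83 and 52.5, so both were above the floor in the miR-155 array alone. It was singled out after its values were seen, and no ratio is given because the first reading is below the floor. Among the paralogs of Serpinb6a, Serpinb6e read 8.47 and 40.8, likewise above the floor in the miR-155 array alone, and was not among the genes kept.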
